A study of Mus musculus with 2 samples.

Results

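The genes described here are the 4 members of the mouse Ebf family, Ebf1, Ebf2, Ebf3 and Ebf4, and the Foxp4 binding sites at them. A site was counted for an Ebf gene if the deposited table names that gene as its nearest gene, or if the site lies within 100 kb of the gene body. By this rule 6 of the 3317 peaks of the series belonged to the family: 3 to Ebf1, 2 to Ebf2, 1 to Ebf4 and none to Ebf3. The peaks came from chromatin immunoprecipitation followed by sequencing (ChIP-seq) with an antibody against the forkhead factor Foxp4. The cells were the stromal vascular fraction (SVF, the non-adipocyte cells) of inguinal white fat from C57BL/6 mice. All were cultured to confluence, with a growth phase of 3 days in 20% serum. They were then taken through 2 days of beige adipocyte differentiation. For those 48 h the medium held 10% serum, the glucocorticoid dexamethasone (1 µM), isobutylmethylxanthine (0.5 mM), the thyroid hormone T3 (50 nM), troglitazone (5 µM) and insulin (5 µg/ml). The series has 1 Foxp4 ChIP library and 1 input DNA library of the same cells. The input library was not analysed here. No value below has a replicate error, no groups could be compared, and read depth is unknown. A list of peaks carries no expression values, so the labelled cell type could not be checked against its markers, and a site says nothing of whether the gene is expressed.

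Ebf proteins (early B cell factors, also called Olf or O/E factors) are DNA-binding transcription factors that act as dimers and recognise a palindromic sequence. Ebf1 is best known for specifying the B cell lineage, and in fat it promotes adipocyte differentiation. Ebf2 marks progenitors of brown and beige adipocytes and helps to direct Pparg, the master regulator of fat cell formation, to genes of brown fat. Ebf3 acts in neurons and in mesenchymal cells such as those of bone marrow. Ebf4 is the least studied member and was described in olfactory neurons.

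No peak lay at a promoter of the family, and of all peaks 8.38% were annotated as promoter peaks. The RefSeq promoter table (build GRCm38.p6) gives windows of 300 bases, 250 before and 50 after a start site, for 3 of the 4 Ebf genes: 2 windows for Ebf1, 1 for Ebf3 and 1 for Ebf4. The closest peak was 65.2 kb from the first Ebf1 window, 63.0 kb from the second, 106 kb from the Ebf4 window and 400 kb from the Ebf3 window. The 250 bases before the first Ebf1 start site (chr11:44617850-44618099, plus strand) are printed because Ebf1 carried the strongest site of the family and yet none here. A stretch of 30 bases from the Ebf3 window (chr7:137314448-137314477, minus strand) is printed because it holds the only match in these windows to the core of the sequence that Ebf proteins bind. Its match is in capitals.
Ebf1 promoter: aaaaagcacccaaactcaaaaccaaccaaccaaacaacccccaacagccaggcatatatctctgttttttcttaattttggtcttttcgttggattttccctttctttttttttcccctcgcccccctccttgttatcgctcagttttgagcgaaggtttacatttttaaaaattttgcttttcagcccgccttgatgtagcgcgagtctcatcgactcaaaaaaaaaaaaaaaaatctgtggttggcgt
Ebf3 promoter stretch: acagcgccgctCCCGGGGGcttcgagtttt
The Ebf1 window was rich in A and T (63.3% of its 300 bases), more so than 94.2% of the 32851 windows in the table, whose median was 47.3%. The second Ebf1 window had 47.0%, the Ebf4 window 25.7% and the Ebf3 window 23.0%. Forkhead cores were searched on either strand: TGTTTAC (found in 3.65% of all windows), TATTTAC (3.04%) and TGTTTGC (5.07%). Of the 4 Ebf windows 0 held any of them, against 11.2% of all windows. The Ebf core CCCNNGGG, which reads the same on both strands and does not overlap the forkhead cores, was found in 1 of the 4 windows, against 13.7% of all windows. That match began 21 bases before the start site of the Ebf3 window. The window (chr7:137314396-137314695) lies inside the gene body, whose 5' end is at chr7:137322805. A match is a string of letters and not a measured site. The sequences under the 6 peaks were not used here.

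Ebf1 (chr11:44618100-45008096, a gene of 390 kb) had 3 peaks, and all lay inside the gene, in introns of the transcript NM_001290709. The first, in intron 6 of 15, had a score of 79 and a width of 413 bp (chr11:44683308-44683720), 65.4 kb downstream of the start site. The second, in intron 10 of 15, had a score of 636 and a width of 976 bp (chr11:44926110-44927085), 308 kb downstream of the start site. The third, in intron 11 of 15, had a score of 61 and a width of 381 bp (chr11:44977603-44977983), 360 kb downstream.
The score is a whole number that the authors' processing gave to each peak. The sources used here do not define it, so it serves only to rank peaks within this list, whose median was 65 (quartiles 41 and 104, range 13 to 2569). On that scale the intron 10 peak stood apart from the others of the family. It ranked 25 of 3317, in the top 0.754%, and its width ranked 39. The other Ebf1 peaks sat near the middle of the list, at rank 1268 for intron 6 and rank 1748 for intron 11.

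Of the 25 peaks with a score of 636 or more, 7 lay in introns and 14 carried no repeat annotation, and the Ebf1 peak was in each of these groups. Over all peaks 38.3% lay in introns and 23.3% carried a repeat annotation, so being in these groups does not set the Ebf1 peak apart. The Ebf1 peak ranked 14 among the peaks with no annotated repeat. A peak with a score of 636 or more lay in the body of 12 protein-coding genes, Ebf1 being 1 of them. Within the gene the 3 peaks lay at 16.8%, 79.1% and 92.2% of its length from the start, so the strongest site and the weakest were both in its far end, 50.5 kb apart, with 242 kb between the intron 6 and intron 10 sites.

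The deposited table credits only the intron 6 peak to Ebf1. The peaks of intron 10 and intron 11 are named for Gm12159, a long non-coding RNA gene beyond the end of Ebf1, whose start site is 190 kb and 139 kb from them and thus closer than the start of Ebf1. They lie 176 kb and 125 kb outside the body of Gm12159 and inside that of Ebf1. Read by nearest start site, the highest score at Ebf1 would be 79 and not 636. Of the 1517 peaks that lie in protein-coding gene bodies, the same table named 24.9% for none of the protein-coding genes they lie in. These were 377 peaks (exact 95% binomial interval 22.7 to 27.1). Overlap with a named gene that is non-coding was not examined, so some of them can also lie in the gene named.

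**Figure D1:**
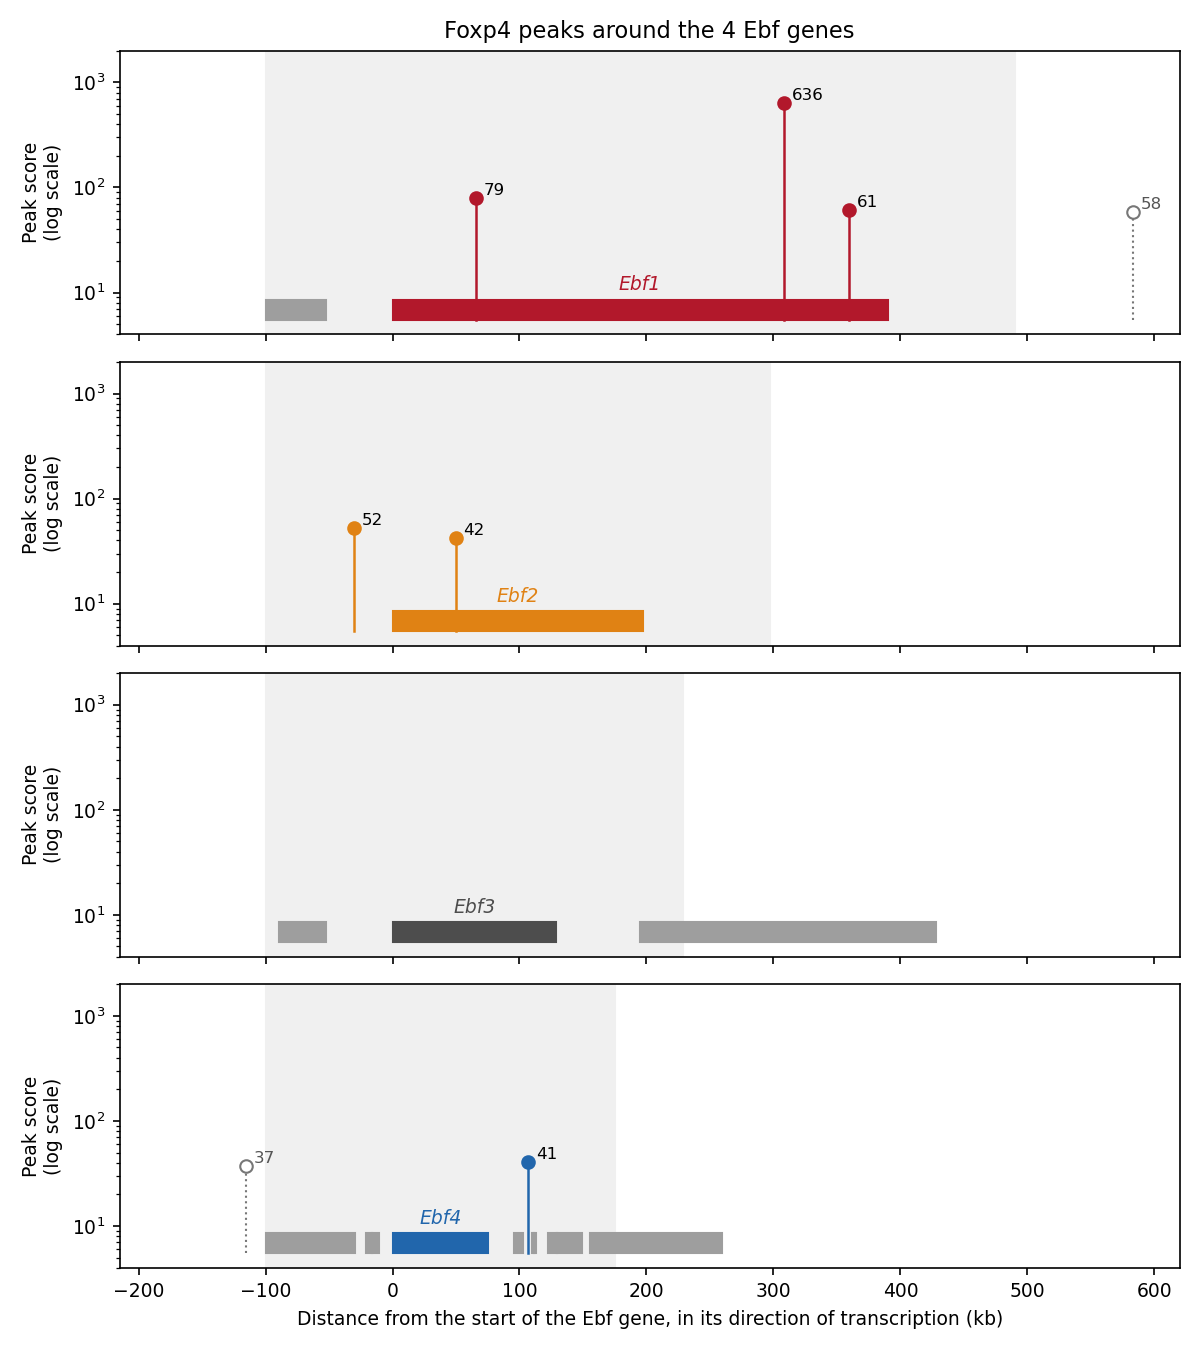
Foxp4 peaks around Ebf1, Ebf2, Ebf3 and Ebf4 (top to bottom). The x axis gives distance in kb from the start of each gene in its direction of transcription, and the y axis the peak score on a log scale. Coloured bars are the Ebf genes, grey bars other protein-coding genes reaching into the shaded window of 100 kb on each side. Filled circles are the 6 peaks counted, with their scores, and open circles are peaks outside the window but within 200 kb. The peak of score 636 lies deep in Ebf1, and the window of Ebf3 is empty.

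Ebf2 (chr14:67233292-67430952, 198 kb) had 2 peaks, 1 on each side of its start site. The upstream peak had a score of 52 and a width of 359 bp (chr14:67203087-67203445). It lay upstream, at -30026 bp from the start site, and is the only peak that the table names for Ebf2. The table calls it intergenic, and in the RefSeq gene table it overlaps the long non-coding RNA gene Gm30806. The other had a score of 42 and a width of 380 bp (chr14:67283103-67283482) and lay in intron 6 of 15 of NM_001360202, 50.0 kb downstream of the start site and at 25.3% of the gene's length. The table names it for Gm6878, a gene inside Ebf2 that the table calls protein-coding and RefSeq a long non-coding RNA. The peak is 31.4 kb from the start of Gm6878 and 21.4 kb outside its body.
Both Ebf2 peaks scored below the median of the list, at rank 2042 for the upstream site and rank 2431 for the intronic one. They were 79.7 kb apart. No other protein-coding gene lies within 100 kb of Ebf2, and the closest peaks beyond the window were 428 kb past its end (score 76, named for Mir6539) and 991 kb before its start (score 19, named for Ptk2b).

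Ebf4 (chr2:130295126-130370482, 75.4 kb) had 1 peak within 100 kb and none in its body. The peak had a score of 41, the lowest of the 6, and a width of 304 bp (chr2:130401864-130402167), and it ranked 2454. It lay 31.4 kb past the end of Ebf4 and at -3.24 kb from the start of 1700020A23Rik, the gene that the table names for it. This is a gene-dense stretch, with 9 other protein-coding genes reaching into the window: Tmc2, Nop56, Idh3b, Cpxm1, 1700020A23Rik, Tmem239, Pced1a, Vps16 and Ptpra. None of these 9 had a peak in its body, and 5 of them, among them Cpxm1 and 1700020A23Rik, are closer to the peak than Ebf4 is. The peak therefore belongs to Ebf4 only by the window. The next peak, just outside the window, was 116 kb before the start of Ebf4, at the promoter of Snrpb, a spliceosome protein gene (score 37, 99 bp from its start site).

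Ebf3 (chr7:137193671-137322805, 129 kb) had no peak in its body, none within 100 kb and none named for it. The closest was 392 kb beyond the higher-numbered end of the gene, which is its 5' end since Ebf3 is read on the minus strand (score 52, named for Gm12669). On the other side the closest was 480 kb away (score 104, named for Gm6249). Neither Mgmt, a DNA repair gene, nor 9430038I01Rik, the protein-coding genes that reach into its window, had a peak in its body. The Rnf145 gene beside Ebf1 had none either. In all, 0 of the 12 neighbouring protein-coding genes of the family had a peak in the body, which cannot be set apart from the 5.71% of all protein-coding genes that had one. With 1 library of unknown depth, an absent peak means that none was listed, not that Foxp4 does not bind there.

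At the limit of 100 kb the count was near to changing only at Ebf4. The farthest sites inside it were 29.8 kb from the body at Ebf2 and 31.4 kb from it at Ebf4. The closest sites outside it were at 116 kb for Ebf4 and 193 kb for Ebf1, where a peak of score 58 lay in the intergenic stretch beyond Gm12159.

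Of the 6 peaks 4 lay in introns and 2 were annotated as intergenic, against 38.3% and 50.5% of all peaks. That split follows in part from choosing peaks in and around long genes. None was a promoter peak, against 8.38% of all peaks, and none carried a repeat annotation, against 23.3%. With 6 peaks, these counts are too few to set apart from those shares. The site closest to the start of an Ebf gene was the one at -30026 bp from Ebf2. The median score of the 6 was 56.5 (range 41 to 636) and that of all peaks 65, with 2 of the 6 above the median of the list. Without the intron 10 peak of Ebf1 the range was 41 to 79. Widths had a median of 380.5 bp for the 6 peaks and 393 bp for all peaks. Apart from the intron 10 site, the family's sites had ranks from 1268 to 2454 of 3317.

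**Figure D2:**
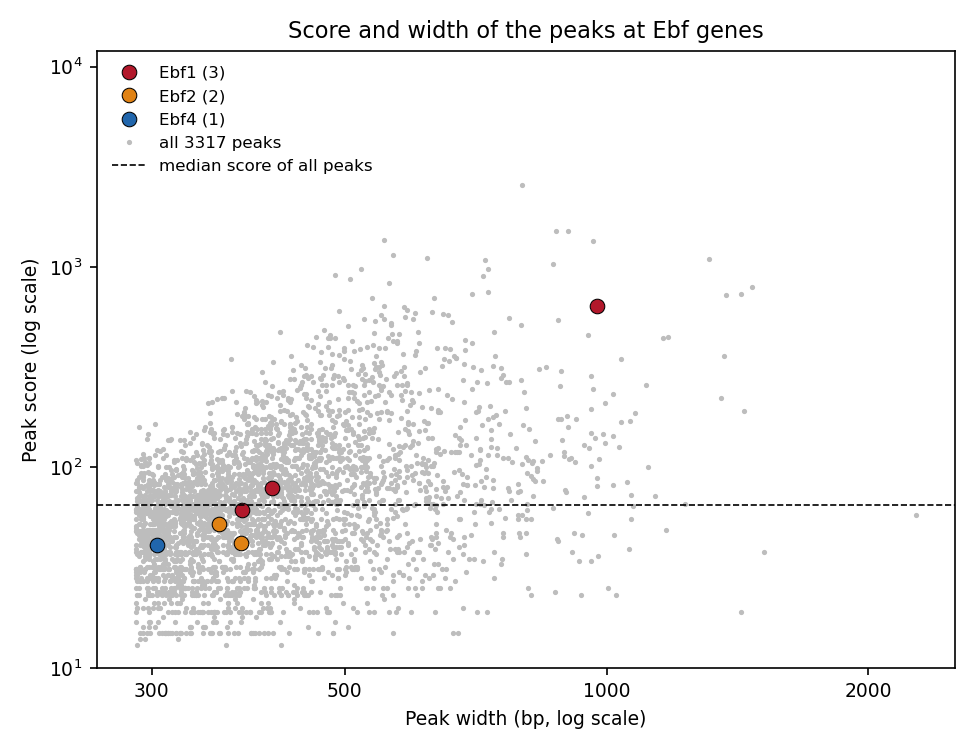
Score (y axis, log scale) against width in bp (x axis, log scale) of the 3317 peaks, each a grey dot, with the peaks at Ebf1, Ebf2 and Ebf4 as coloured circles and the median score of 65 as a dashed line. The Ebf1 intron 10 peak, 976 bp wide with a score of 636, stands far from the other 5, which are 304 to 413 bp wide with scores of 41 to 79.

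The counts of Ebf genes with a peak were set beside those of all genes. A peak within 100 kb of the body, or named for the gene, was found for 3 of 4 Ebf genes, against 28.3% of 21900 protein-coding genes (exact 95% interval 27.7 to 28.9). A peak inside the gene body was found for 2 of 4, against 5.71%. As nearest gene 2 of 4 were named, against 9.10%.
The Ebf genes are long, and long genes collect more peaks. Among the 3332 protein-coding genes at least as long as Ebf4, which are 15.2% of all, the shares were 40.0% for the window, 20.3% for the gene body and 20.9% for the name. Counts of 2 or 3 among 4 genes are too few to set apart from these shares, and since the family was chosen with earlier results of these data known, no test was made.
By number of peaks Ebf1 stood higher. With 3 peaks in its body it was 1 of 62 protein-coding genes with 3 or more (0.283% of all, and 1.77% of the long genes). By the window or name, 3 or more peaks, as at Ebf1, were found for 2.83% of all protein-coding genes and 6.54% of the long ones. For 2 or more, as at Ebf1 and Ebf2, the shares were 8.68% and 15.5%. The long genes begin at 75.4 kb and Ebf1 is 390 kb, so none of these shares is one for genes of its length.
Counted per length, the 4 windows together held 6 peaks in 1.59 Mb, or 3.77 per Mb (exact 95% Poisson interval 1.38 to 8.20). The autosomes held 1.34 peaks per Mb of the span of their annotated genes. For Ebf1 the density was 5.08 per Mb (1.05 to 14.9), for Ebf2 5.03 (0.609 to 18.2) and for Ebf4 3.63 (0.0919 to 20.2). For Ebf3 it was 0, which allows up to 11.2 per Mb. Chromosome 11, which carries Ebf1, held 1.60 per Mb, and chromosomes 14, 7 and 2 held 1.15, 1.10 and 1.25. The intervals of the 4 windows taken singly include the autosomal value. Those of the windows together and of the 4 gene bodies together (4 peaks, 5.05 per Mb, 1.38 to 12.9) lie just above it at their lower ends. They cover counting error only, for a family chosen with earlier results known, and the autosomal value is not one for long genes.

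**Figure D3:**
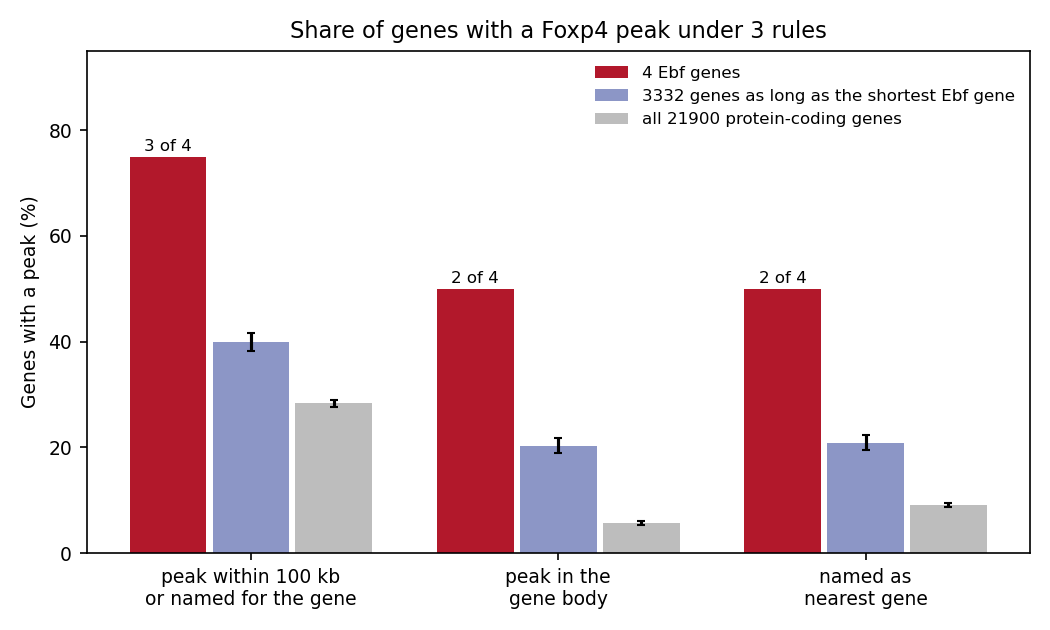
Percentage of genes with a Foxp4 peak (y axis) under each of 3 ways of counting (x axis), for the 4 Ebf genes, for the 3332 protein-coding genes at least as long as the shortest Ebf gene and for all 21900 protein-coding genes. Error bars are exact 95% binomial intervals and are left off the Ebf bars, whose counts out of 4 are printed above them. The middle bars, for long genes, are higher than those for all genes throughout.

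Genes that work with Ebf factors in fat cells or are acted on by them were counted in the same way. Of 16 such genes, 8 had a peak within 100 kb or named for them, 3 had one in the body and 5 were named as nearest gene. Over all protein-coding genes the shares were 28.3%, 5.71% and 9.10%, and over the long genes 40.0%, 20.3% and 20.9%. The 16 genes run from 1.52 kb to 662 kb in length, and no test was made. The zinc finger genes Zfp423, whose product binds Ebf proteins and commits cells to the fat lineage, and Zfp521, an inhibitor of Ebf1, had none, with the closest peaks 873 kb and 660 kb away. Nor was any listed for Prdm16, a determinant of brown and beige fat (155 kb to the closest peak), for Ucp1, the uncoupling protein (350 kb), or for Cebpd, an early adipogenic factor (532 kb). The same held for Ehmt1, a methyltransferase that works with Prdm16, and for Hnrnpu and Zbtb7b, whose products act with an Ebf2-binding long non-coding RNA.
The peak that the table names for Pparg lay outside the gene, 47.5 kb from its body, with a score of 28. Ppargc1a, a coactivator of the thermogenic programme, had 1 in its RefSeq body of 662 kb, with a score of 94. The deposited table calls that peak intergenic and names it for Mir6417. Pdgfra, a receptor gene of adipocyte progenitors, had a promoter peak of score 101 and 1 of 77 upstream.
Dpf3, a subunit of the BAF remodelling complex that works with Ebf2, had a peak of score 53 at 14.6 kb from the gene. Smarca4, the ATPase of that complex, had a promoter peak of 29. Tle3, a corepressor that counters the brown fat programme, had 1 of score 34 upstream and 1 of 19 in the gene. Cebpa and Cebpb, which were named after their values were seen, had peaks in the window only, of score 360 at 77.4 kb (named for Cebpg) and of score 125 and 99 (named for A530013C23Rik). None of the peaks of these 16 genes reached the 636 of the Ebf1 intron 10 site.

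In other transcription factor families of 4 genes, too, some members had several peaks and others none. Ebf had 6 peaks at 3 genes, the nuclear factor I family 12 peaks at 3 genes and the Foxp family 7 peaks at 2 genes. By the same rule 28.3% of all protein-coding genes and 40.0% of the long ones had a peak, and counts out of 4 are too few to set apart from these shares. In each family 1 gene held more sites than any other: Ebf1 with 3, Nfia with 8 (6 in the body) and Foxp1 with 6 (5 in the body). These are also the longest genes of their families, at 390 kb for Ebf1, 541 kb for Nfia and 597 kb for Foxp1. Foxp2, at 541 kb, nevertheless had 1 peak, of score 38. The highest score was 636 at Ebf1, 228 at Nfia and 241 at Foxp1. Nfib had 3 peaks of score 72, 37 and 32, and Nfix 1 of score 25 at 69.5 kb. Nfic, Foxp3 and Foxp4 had none. No test of the difference between families was made.

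**Figure D4:**
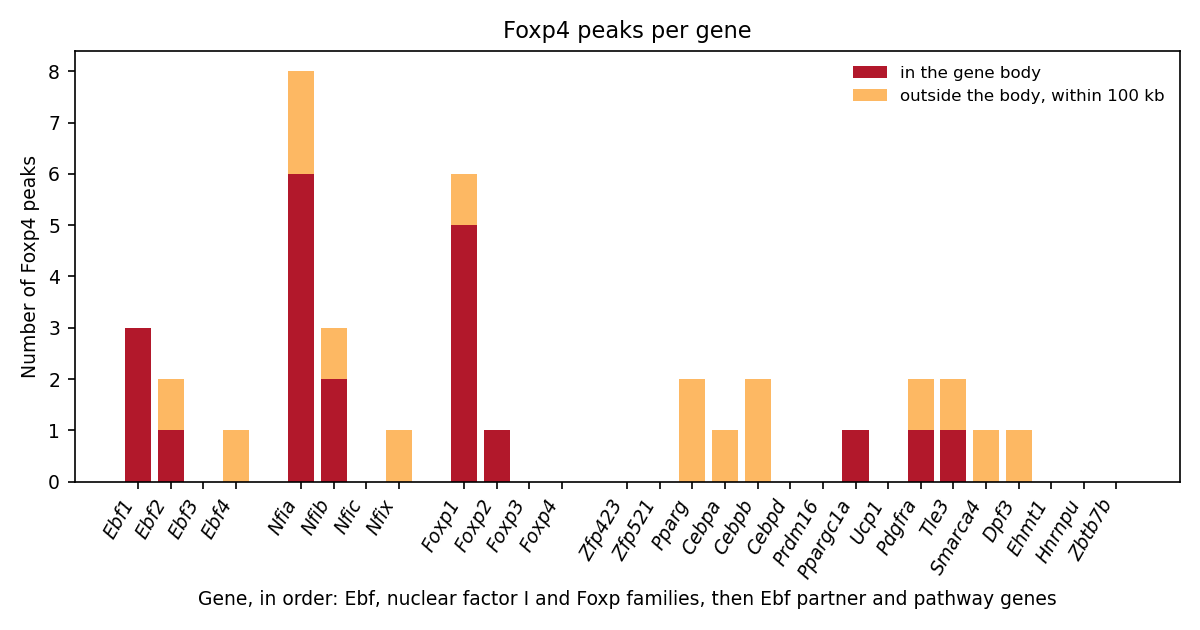
Number of Foxp4 peaks (y axis) in the body (dark) and outside it but within 100 kb or by name (light) for each gene (x axis) of the Ebf, nuclear factor I and Foxp families and for the 16 genes that work with Ebf factors. All 3 peaks of Ebf1 are in its body, the peak of Ebf4 is outside it, and Ebf3 has none.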

How the data were processed

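Peaks of 1 Foxp4 ChIP library were analysed. Per the file headers, the authors annotated a narrowPeak file with annotatePeaks.pl on mm10. The submitters' processing notes name MACS2, Bowtie2, SAMtools, deepTools 3.3.0 and Picard but not what each did. The deposited score of each peak has no stated definition, and the sources used here do not say how the input or multiply aligned reads were handled. Either could change which sites are listed. The table's 3317 peaks all entered the analysis. Its 1 further line, a message of the annotation program, did not.

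Gene bodies came from a RefSeq table of GRCm38.p6, the assembly behind mm10. The start site implied by a peak's distance, taken in either direction, was in the named gene, give or take 2 bp, for 98.9% of 3314 peaks. A peak counted for a gene if at least 1 bp overlapped the body or the 100 kb on either side, or if the table names the gene (matched by gene number). Distances to bodies are from the closer peak edge, and those to starts from the midpoint. Shares have exact (Clopper-Pearson) and densities exact Poisson 95% intervals, computed with SciPy 1.17.1. Window counting was tested on simulated peaks. No test was made, since there is 1 library. The members and gene lists were chosen with earlier results of these data known. The genes named were the Ebf genes, the genes that the table names at their peaks, their protein-coding neighbours within 100 kb, and listed genes with a peak in the body or named for them. Genes of the lists with no peak, Cebpa, Cebpb, Nfix, and the genes named at peaks outside the windows were added. Of the peaks counted for the listed genes, 1 is not described here.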

Additional observations from a re-analysis of the deposited data

How the results depend on the processing

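The window, the score limit and the position rule were varied. Peaks at Ebf genes numbered 6 under a 50 kb window, a score of at least 30 and the midpoint rule, 5 with 20 kb, 8 with 200 kb and 4 in gene bodies. They fell to 2 with the nearest gene's name only, to 2 at or above the median score, and to 1 in the top quartile, the Ebf1 intron 10 peak. Ebf genes with a peak fell to 1 at the median and 1 in the top quartile, Ebf1 in each case, and numbered 2 or 3 otherwise. Ebf3 had none under any of these settings. The share of protein-coding genes with a peak, 28.3% as reported, was 19.4% with 50 kb, 13.6% with 20 kb, 41.9% with 200 kb, 5.71% in bodies, 9.10% by name, 25.2%, 17.1% and 9.45% under the rising score limits, 25.5% of all annotated genes and 40.0% of long genes. The median score of the Ebf peaks ranged from 55 to 70 over the windows. Of the 16 partner genes, 8 as reported, 3 had a peak in the body, 5 by name, 5 at the median score and 2 in the top quartile. Of the 8 genes of the other families, 5 as reported, 3 and 2 did under those score limits. The settings for partner genes and families were added after the data were seen. No paired analysis was possible because there is 1 ChIP library. Depth limits every absence, and how far was not tested.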

Other observations

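Strong sites inside one gene and named for another were not limited to Ebf1. Of the 377 peaks named for none of the protein-coding genes they lie in, 33 had a score of 200 or more. Ranked by score, the Ebf1 intron 10 peak was the third. Before it came a site of score 1081 that overlaps the body of Cdc5l, a splicing factor gene, and is annotated as a promoter peak (transcript NM_152810). It is named for B230354K17Rik, whose start site, 0.106 kb away, falls within the peak, so this site also overlaps the gene named. The next was a site in intron 7 of 7 of Bgn, a matrix proteoglycan gene, of score 915 and named for Atp2b3. After it came sites in Lpp, a focal adhesion gene (score 574, named for Morf4l1-ps1), Flvcr2 (552, named for Erg28) and Fndc3b (463, named for Mir3092). The Flvcr2 and Fndc3b sites carried a repeat annotation, unlike the Ebf1 and Lpp sites. In all, 306 protein-coding genes held at least 1 such peak, named for none of the protein-coding genes it lies in. These genes were chosen by score after the values were seen.

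Past the far end of Ebf1, where RefSeq lists no protein-coding gene within 100 kb, the peaks went on at wide intervals. They had scores of 58 at 193 kb and 44 at 303 kb beyond the gene, and both are named for Gm12159. With the 2 intronic peaks of the same name, Gm12159 was the named gene of 4 peaks between intron 10 of Ebf1 and this stretch, and none of them overlapped Gm12159 itself.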
